A study of Homo sapiens with 6 samples.

Results

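The messenger RNAs of the nuclear pore complex and of the nuclear transport machinery were followed in libraries of SK-Hep1 cells, a human line derived from a liver tumour. Genes were taken by symbol: names starting with NUP and a digit, KPNA, KPNB, XPO, IPO and a digit, TNPO or RANBP, together with RAN, RANGAP1, RCC1, CSE1L, TPR, NXF1 and NXT1. This gave 57 of the 11593 gene symbols listed, with 171 of the 28768 listed transcripts. There were 3 libraries labelled as ChIRP with the SNHG10 probe set and 3 with a LacZ probe set as control. In ChIRP, biotinylated DNA oligonucleotides antisense to an RNA retrieve that RNA with what is crosslinked to it. SNHG10 is a long noncoding RNA, and LacZ is a bacterial gene without a human counterpart. All 6 libraries came from 1 cell line with no other treatment named, and the probe sets came from different makers, RiboBio for SNHG10 and Millipore for LacZ. The protocol in the labels describes Trizol extraction and total RNA and mentions no retrieval, whereas the series design speaks of retrieved RNA, so which fraction was sequenced is not settled. Nothing in the labels says that the replicates were separate cultures, so the p-values below measure library-to-library spread, possibly of technical origin.

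Values are FPKM, fragments per kilobase of transcript scaled to each library's mapped fragments, summed here over the listed transcripts of a gene. Library totals spanned 268794 to 272909 FPKM for SNHG10 probes and 271354 to 277118 FPKM for LacZ probes, and the read depth behind them is not known. Of 8 hepatocyte markers, SERPINA1 and CPS1 had values. They summed to 1.04 to 1.72 FPKM in SNHG10 libraries and 1.25 to 2.12 FPKM in LacZ ones. The others, ALB and APOA1 among them, were looked for and were not among the listed genes. Of 7 endothelial markers, ENG, EGFL7 and ROBO4 had values and summed to 42.4 to 51.2 FPKM with SNHG10 probes, against 46.4 to 61.8 FPKM with LacZ probes. PECAM1, CDH5, VWF and KDR were looked for and were not listed. The leukocyte markers CD14 and CD68 summed to 36.8 to 56.1 FPKM against 43.1 to 56.5 FPKM, and PTPRC, also looked for, was not listed. The fibroblast markers COL3A1, ACTA2 and COL1A1 summed to 34.1 to 54.8 FPKM against 46.6 to 60.7 FPKM. The biliary markers KRT7, KRT19 and SOX9 were by far the highest, at 462 to 491 FPKM against 457 to 520 FPKM. Markers of other cell types had values too, and the identity of the cells was not tested.

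Nuclear pores are channels through the nuclear envelope, built of nucleoporins in stacked rings around a central channel lined with phenylalanine-glycine repeats. Importins and exportins carry proteins and RNAs through this channel. They take up or release cargo according to whether the small GTPase Ran is bound to GTP, as it is in the nucleus, or to GDP, as it is in the cytoplasm. Most messenger RNA leaves by another receptor, the NXF1 and NXT1 pair, and is remodelled on the cytoplasmic face of the pore.

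The transport machinery took 0.511%, 0.517% and 0.497% of all FPKM with SNHG10 probes, against 0.527%, 0.501% and 0.515% with LacZ probes, and these shares overlapped. The summed level was 1373 ± 16.7 FPKM with SNHG10 probes and 1411 ± 32.8 FPKM with LacZ probes (SD, n = 3 each). The soluble factors stood highest. RAN averaged 121 FPKM over the 6 libraries, the importin alpha KPNA2 114, the importin beta KPNB1 94.7, IPO5 89.7, RANBP1 72.1 and RANGAP1 63.0, and these 6 genes held 38.2% to 41.8% of the members' sum in a library. The median member stood at 14.2 FPKM, against 6.53 FPKM for all listed genes. At the low end, NUP62CL, KPNA5 and RANBP17 averaged 0.418, 0.427 and 0.449 FPKM. They did not reach 1 FPKM in 3 libraries and were left out of the tests, so 54 members were tested.

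**Figure D1:**
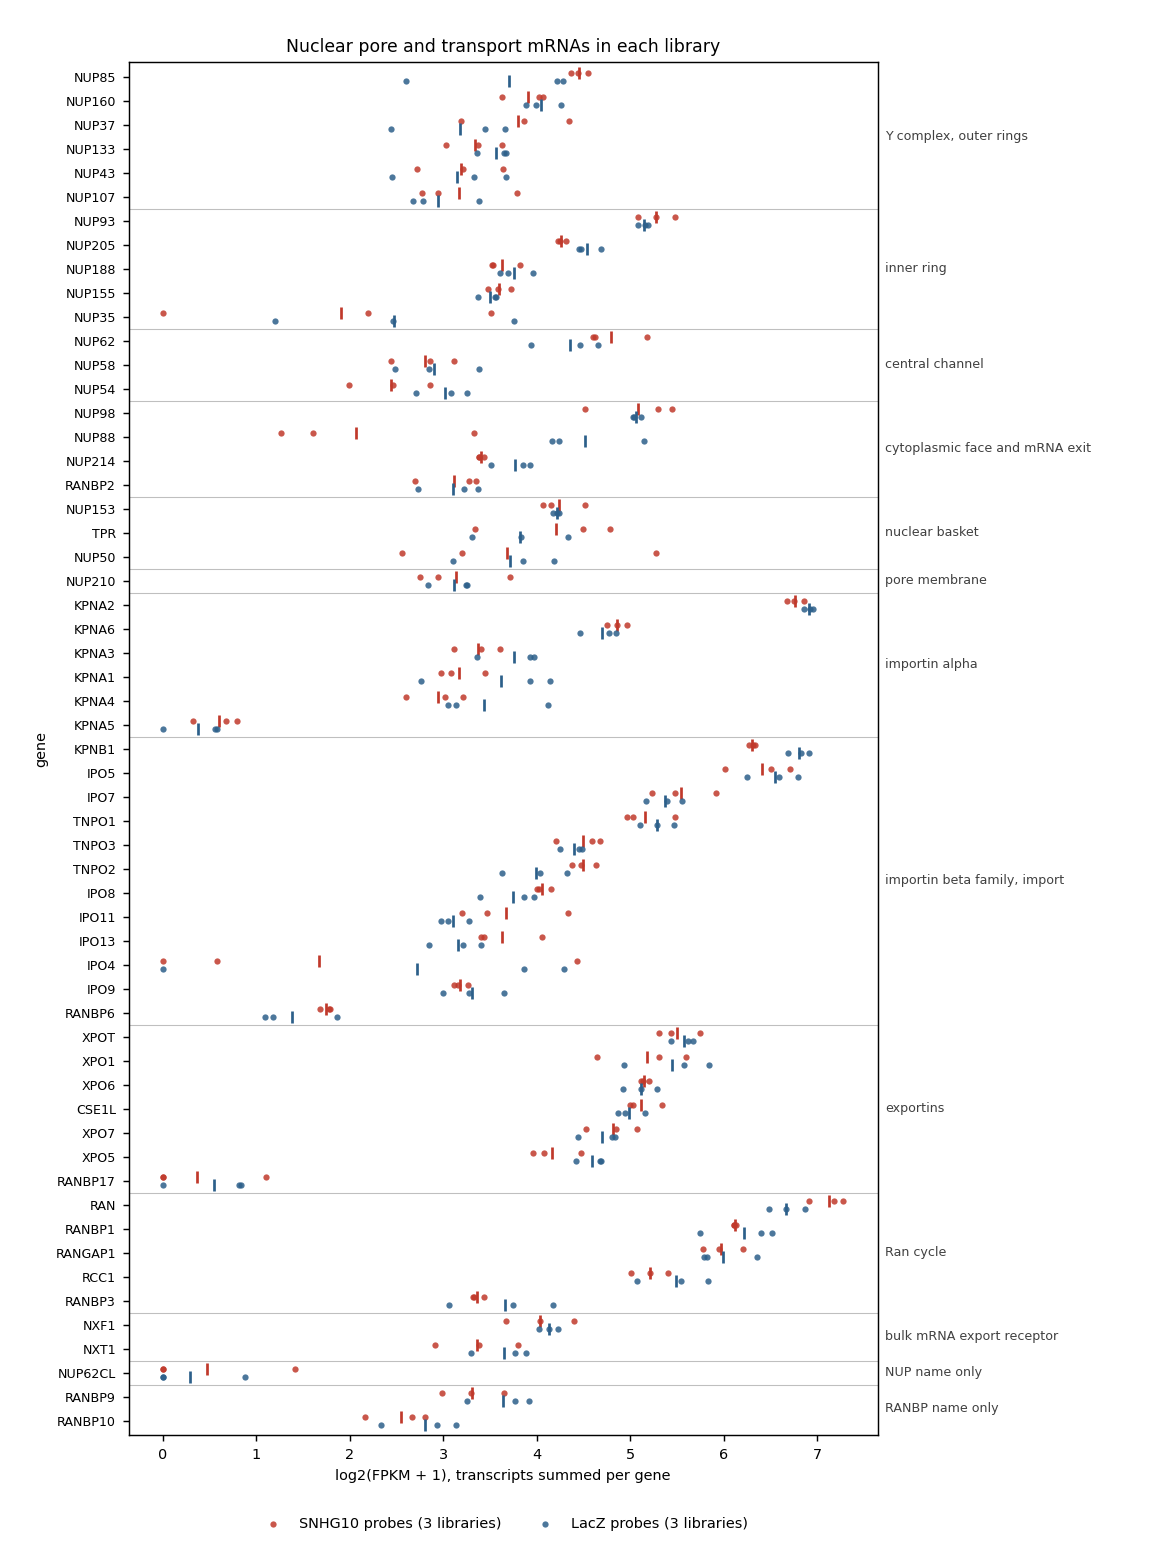
Level of each of the 57 genes in each library, as log2(FPKM + 1), in order of role and of mean level within a role. Points are libraries, 3 with SNHG10 probes (red, upper) and 3 with LacZ probes (blue, lower), and ticks are means of the log2 values. The probe sets overlap for most genes, while NUP88 and KPNB1 lie lower and RAN higher with SNHG10 probes.

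No member was called higher or lower with SNHG10 probes. In the fit of limma across all 10304 genes that reached 1 FPKM in 3 or more libraries, on log2(FPKM + 1), 0 of the 54 members passed the Benjamini-Hochberg threshold of 0.05 in either direction, and 0 of all genes did (0.0% higher, 0.0% lower). The smallest adjusted p among the members was 0.768, for NUP88. limma without an intensity trend and with robust eBayes also called 0 members. At an unadjusted p under 0.05 there were 3 members, NUP88, KPNB1 and RAN, which is 5.56% of those tested against 5.42% of all genes tested. The 3 SNHG10 libraries lay all above the 3 LacZ libraries for 4 members (RAN, NUP85, TNPO2 and IPO8) and all below for 4 others (NUP88, KPNB1, NUP205 and NUP214). That is 14.8% of the members tested, against 11.4% of all genes tested (4.22% above and 7.21% below). Log2 differences, given throughout as SNHG10 probes minus LacZ probes on the log2(FPKM + 1) scale, were positive for 24 members and negative for 30, with a median of -0.0868. Over all genes tested the median was -0.0537, with 56.7% below 0. With median-ratio scaling the split of the members was 26 and 28 and their median -0.0289. In these bulk libraries, a difference in retrieval or probe maker, fewer cells with an RNA and less of it in each cell cannot be told apart.

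**Figure D2:**
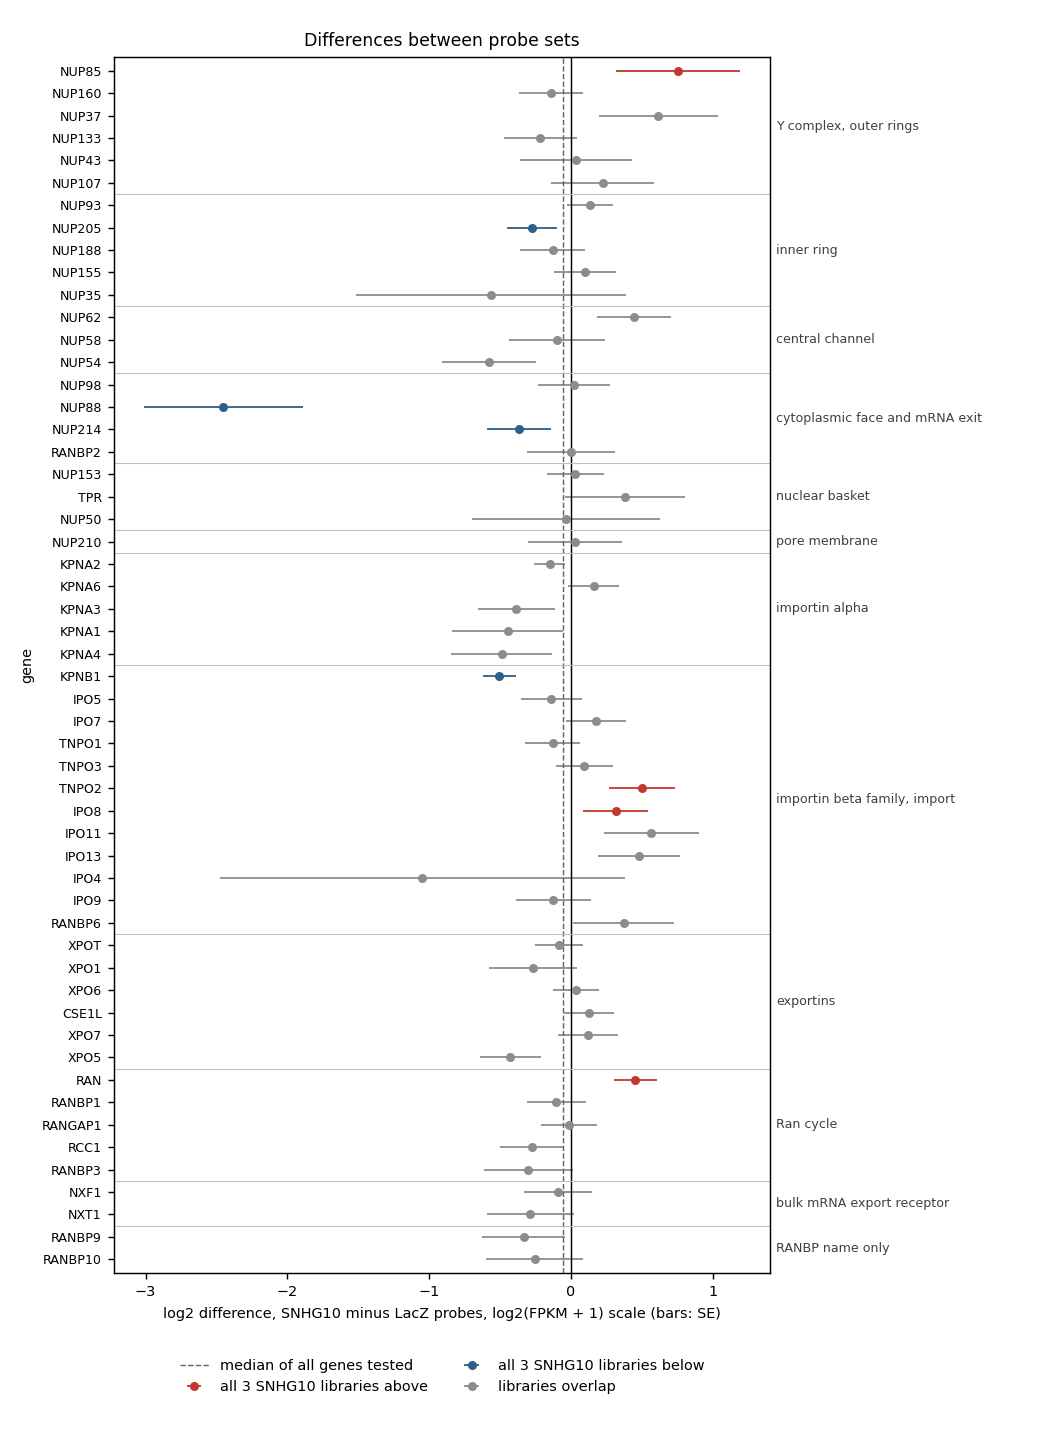
Log2 difference of each of the 54 tested genes, SNHG10 minus LacZ probes, on the log2(FPKM + 1) scale, with its standard error as a bar, by role. Red marks genes whose SNHG10 libraries lie all above the LacZ libraries, blue those all below, grey those that overlap, and the dashed line the median of all genes tested, -0.0537. NUP88 at -2.45 lies farthest from 0, and no gene passed the adjusted threshold.

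The Ran cycle had the most abundant member of the whole set. RAN, the GTPase itself (hg19 chromosome 12, 131356424 to 131362223, plus strand), stood at 155, 144 and 119 FPKM with SNHG10 probes, against 100.3, 116 and 88.5 FPKM with LacZ probes. In this sum all 3 SNHG10 libraries were above the LacZ libraries, with the lowest of them close to the highest LacZ library. No single listed transcript of RAN separated the probe sets. RAN-212, the leading one, read 74.7, 83.0 and 54.4 FPKM against 62.2, 68.9 and 56.6 FPKM. RAN-202 read 67.3, 59.5 and 46.7 FPKM against 37.9, 47.0 and 11.1 FPKM. The log2 difference of the RAN sum was 0.45 ± 0.15 (SE), with an adjusted p of 0.885 by limma and an exact permutation p of 0.1 (two-sided, n = 3 each), the smallest that 20 assignments allow. Over the runs that left out 1 library it stayed between 0.36 and 0.56. Processed copies of RAN exist in the genome, so reads could be shared with them. The promoter of RAN is shown because it is the most abundant member and lay higher with SNHG10 probes. It is the 300-base RefSeq window around the gene start (GRCh38.p14, chr12:130871816-130872115, plus strand), with 6 matches to the Sp1 GC box GGGCGG on either strand and 1 to the E-box CACGTG in capitals, the E-box overlapping a GC box.
RAN: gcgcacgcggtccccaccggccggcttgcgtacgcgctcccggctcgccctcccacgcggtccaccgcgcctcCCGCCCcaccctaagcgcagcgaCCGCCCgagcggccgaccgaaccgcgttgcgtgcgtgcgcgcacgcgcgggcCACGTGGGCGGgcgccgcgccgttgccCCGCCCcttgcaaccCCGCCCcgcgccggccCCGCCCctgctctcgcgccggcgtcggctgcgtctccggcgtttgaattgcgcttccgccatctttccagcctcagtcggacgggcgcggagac

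The regulators of Ran overlapped between the probe sets. RANBP1, which helps RANGAP1 act on exported complexes, read 68.4, 68.4 and 69.0 FPKM with SNHG10 probes, against 83.5, 90.9 and 52.7 FPKM with LacZ probes. The SNHG10 libraries were nearly equal, and the LacZ libraries spread to both sides of them. RANGAP1, which makes Ran hydrolyse its GTP, averaged 62.5 ± 9.67 and 63.6 ± 15.0 FPKM, with a log2 difference of -0.01 ± 0.20 that became 0.0459 with median-ratio scaling. RCC1, the exchange factor on chromatin that reloads Ran with GTP, averaged 36.3 ± 5.08 and 44.9 ± 11.8 FPKM (SD, n = 3 each). RANBP3, a cofactor of export, averaged 9.29 ± 0.488 and 12.3 ± 4.86 FPKM. In RANBP1, RANGAP1, RCC1 and RANBP3 the SNHG10 libraries spread less than the LacZ libraries, and that difference in spread was not tested. RAN went the other way, with an SD of 18.2 FPKM with SNHG10 probes and 13.8 FPKM with LacZ probes. Summed over its 5 members, the cycle read 324, 337 and 287 FPKM with SNHG10 probes, against 338, 302 and 254 FPKM with LacZ probes.

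Among the importin alphas, adaptors that bind the classical nuclear localization signal, KPNA2 was by far the highest. KPNA2 (chromosome 17, 66031635 to 66042958, plus strand) read 115, 101 and 107 FPKM with SNHG10 probes, against 121, 123 and 115 FPKM with LacZ probes, with the highest SNHG10 library just inside the LacZ range. Its log2 difference was -0.15 ± 0.11 (adjusted p = 0.928 by limma). KPNA6 came next at 28.0 ± 2.19 and 25.1 ± 3.53 FPKM, and KPNA3, KPNA1 and KPNA4 averaged 6.83 to 9.47 FPKM with SNHG10 probes and 10.49 to 12.8 FPKM with LacZ probes. KPNA1 and KPNA4 were uneven among the LacZ libraries, at 16.7, 5.77 and 14.3 FPKM and at 7.31, 7.79 and 16.4 FPKM. Of the 5 tested, KPNA6 lay above 0 on the log2 difference and the other 4 below 0, and none passed. Summed over the 6 listed importin alphas, the level was 169, 152 and 162 FPKM with SNHG10 probes, against 185, 173 and 183 FPKM with LacZ probes, without overlap. KPNA2 carries most of this sum. No p is given for a sum over chosen genes.

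KPNB1, importin beta, is the carrier that takes importin alpha and its cargo through the pore (chromosome 17, 45726842 to 45762871, plus strand). It read 78.4, 76.1 and 79.5 FPKM with SNHG10 probes, against 102, 119 and 113 FPKM with LacZ probes. The libraries of each probe set lay close together and well apart from the other probe set. The log2 difference was -0.51 ± 0.12, with an unadjusted p of 0.00277 and an adjusted p of 0.793 by limma, and an exact permutation p of 0.1 (two-sided, n = 3 each). It ranged from -0.57 to -0.46 over the runs that left out 1 library. The adjusted p was between 0.779 and 0.926 over all alternatives.

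The gap in KPNB1 lay in 2 of its 4 listed transcripts. KPNB1-202 (45726842 to 45759999) was listed at 0, 0.0891 and 0.388 FPKM with SNHG10 probes, against 16.5, 31.9 and 17.7 FPKM with LacZ probes. KPNB1-203 (45728562 to 45760046) read 0.814, 0.186 and 0.0269 FPKM, against 17.2, 52.2 and 41.8 FPKM. Together they held 0.501 ± 0.280 FPKM with SNHG10 probes and 59.1 ± 25.2 FPKM with LacZ probes (SD, n = 3 each), so both were near 0 in each SNHG10 library. KPNB1-201, the transcript with the highest mean (45727204 to 45762871), had the opposite sign, at 62.3, 66.8 and 73.1 FPKM against 47.3, 29.1 and 51.4 FPKM. Its share of the gene was 79.4%, 87.7% and 91.9% with SNHG10 probes, against 46.3%, 24.4% and 45.6% with LacZ probes. KPNB1-204, a short one, overlapped between the probe sets at 15.3, 9.06 and 6.01 FPKM against 21.2, 5.92 and 1.84 FPKM.

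In the limma fit across all 16618 transcript rows that reached 1 FPKM in 3 or more libraries, 109 rows of members were tested. Of these, 1 was called lower with SNHG10 probes, KPNB1-202, against 0.0421% of all rows tested, and 0 were called higher, against 0.0481%, or 0.0903% in either direction. At an unadjusted p under 0.05 there were 7 member rows, against 5.66% of all rows tested, and 3 of these 7 belonged to KPNB1. The log2 difference of KPNB1-202 was -4.27 ± 0.41 (adjusted p = 0.0429) and that of KPNB1-203 was -4.73 ± 0.51 (adjusted p = 0.0571), while KPNB1-201 was at 0.69 ± 0.24 (adjusted p = 0.782). KPNB1-202 and KPNB1-203 were under 1 FPKM in every SNHG10 library and passed the filter through the LacZ libraries alone. Only a row that differed could enter in this way, so their tests and the call are given as a description. On simulated data the transcript fit also made false calls well above the nominal rate. With no filter on rows, the adjusted p of KPNB1-202 was 0.0528 and the call was lost. Over the alternatives, the adjusted p of KPNB1-202 ranged from 0.0236 to 0.598. It was not called when any 1 of SNHG10 replicates 1, 2 and 3 was left out (adjusted p of 0.229, 0.182 and 0.155). Without LacZ replicate 1, 2 or 3 it failed the filter, and with the filter set to 2 libraries its adjusted p was 0.241, 0.195 and 0.254. The sources used here do not say how reads were divided between overlapping transcripts, so reads of 1 transcript may have been assigned to another.

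**Figure D3:**
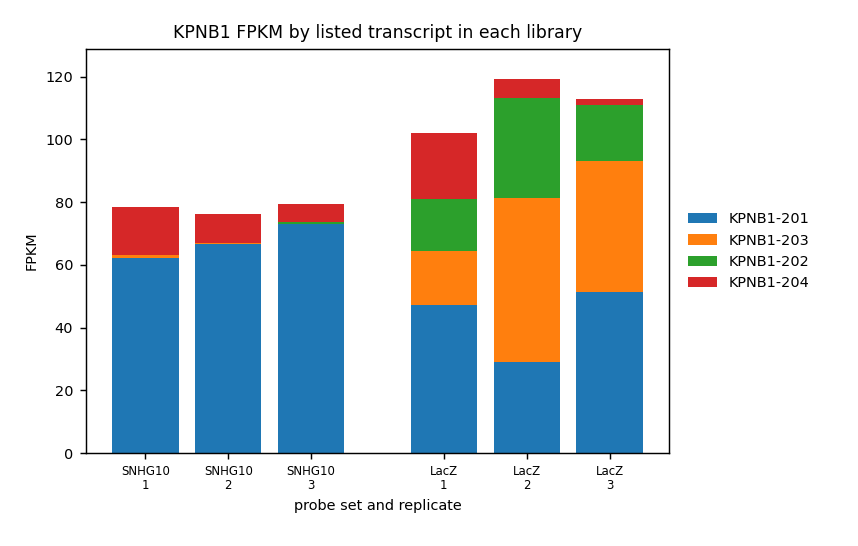
FPKM of KPNB1 in each library, SNHG10 probes on the left and LacZ probes on the right, as bars from 0 divided by listed transcript. KPNB1-202 and KPNB1-203 are nearly absent from the 3 SNHG10 bars and sum to 33.7, 84.2 and 59.6 FPKM in the LacZ bars, while KPNB1-201 is higher in the SNHG10 bars.

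The other import carriers of the importin beta family spread to both sides. TNPO2, a close relative of transportin (chromosome 19, 12810008 to 12834810, minus strand), read 21.3, 23.9 and 19.8 FPKM with SNHG10 probes, against 15.4, 11.4 and 19.0 FPKM with LacZ probes, without overlap. Its log2 difference was 0.50 ± 0.23 (adjusted p = 0.885 by limma) and ranged from 0.32 to 0.66 over the runs that left out 1 library. Its short transcript TNPO2-217 lay without overlap as well, at 7.63, 9.65 and 8.48 FPKM against 4.21, 5.16 and 4.53 FPKM. IPO8 read 16.8, 15.1 and 15.3 FPKM against 14.7, 9.52 and 13.6 FPKM, a gap narrower than the spread within either probe set, and its log2 difference of 0.32 ± 0.23 ranged from 0.14 to 0.43 over those runs. TNPO1, transportin, which imports hnRNP proteins, averaged 35.2 ± 7.29 and 38.2 ± 4.85 FPKM. TNPO3, which imports SR splicing factors, averaged 21.7 ± 3.72 and 20.1 ± 1.88 FPKM. IPO5 read 63.6, 89.8 and 104 FPKM against 95.2, 75.3 and 110.4 FPKM, and IPO7 36.7, 59.5 and 43.7 FPKM against 46.0, 35.0 and 41.1 FPKM, both with partly overlapping ranges. Each of these last carries ribosomal proteins among its cargoes.

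Among the lower carriers, IPO11 stood out by a single library. It read 19.2, 10.1 and 8.18 FPKM with SNHG10 probes, against 8.67, 7.31 and 6.85 FPKM with LacZ probes, and 14.1 FPKM of the first value belonged to IPO11-207, which was listed at 0 in the other 5 libraries. IPO13, which both imports and exports, read 15.7, 9.59 and 9.81 FPKM against 6.19, 9.61 and 8.26 FPKM. IPO9, an importer of histones, averaged 8.08 ± 0.512 and 9.07 ± 2.30 FPKM, and RANBP6, a paralog of IPO5, 2.37 ± 0.133 and 1.68 ± 0.843 FPKM (SD, n = 3 each). IPO4 had the widest spread of all members, at 0.492, 20.6 and 0 FPKM with SNHG10 probes and 13.5, 0 and 18.6 FPKM with LacZ probes. Its single listed transcript was thus listed at 0 in 1 library of each probe set. Such a 0 can be a failed estimate. Of the 12 carriers in this group, the log2 difference was above 0 for 7 and below 0 for 5.

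The exportins were expressed at 20.2 to 45.7 FPKM on average, apart from RANBP17, and none separated the probe sets in its sum. XPO1, which exports proteins with a leucine-rich signal, read 47.4, 38.6 and 24.1 FPKM with SNHG10 probes, against 29.5, 56.6 and 46.6 FPKM with LacZ probes. The values of the probe sets overlapped over most of their range. XPOT, the exporter of transfer RNA, averaged 44.5 ± 7.35 and 46.9 ± 4.10 FPKM, and XPO6, the exporter of actin, 34.5 ± 1.03 and 33.8 ± 4.37 FPKM. Within XPOT, XPOT-201 lay all below, at 37.1, 34.1 and 35.1 FPKM against 39.0, 39.4 and 44.7 FPKM. XPOT-202 lay all above, at 9.02, 4.38 and 5.01 FPKM against 0.898, 3.83 and 1.83 FPKM, and XPOT-204 overlapped. CSE1L, which returns importin alpha to the cytoplasm, averaged 34.0 ± 4.73 and 30.9 ± 3.39 FPKM, and XPO7 27.6 ± 5.35 and 25.1 ± 3.79 FPKM (SD, n = 3 each). XPO5, the exporter of microRNA precursors, came nearest to separation at 21.2, 15.9 and 14.5 FPKM against 24.8, 24.6 and 20.4 FPKM. Its log2 difference was -0.43 ± 0.21 (adjusted p = 0.885 by limma), and the highest SNHG10 library lay above the lowest LacZ library. The receptor for bulk messenger RNA overlapped too, with NXF1 at 11.7, 20.2 and 15.4 FPKM against 15.3, 16.6 and 17.7 FPKM, and its partner NXT1 at 9.40, 6.51 and 12.9 FPKM against 13.7, 8.83 and 12.6 FPKM.

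On the cytoplasmic face of the pore stood the member with the largest difference. NUP88 anchors NUP214 there (chromosome 17, 5289346 to 5323480, minus strand). It read 1.41, 9.05 and 2.04 FPKM with SNHG10 probes, against 16.9, 17.9 and 34.6 FPKM with LacZ probes. All SNHG10 libraries were below the LacZ libraries, and both probe sets were uneven. The log2 difference was -2.45 ± 0.56, with an unadjusted p of 0.00253, an adjusted p of 0.768 by limma and an exact permutation p of 0.1 (two-sided, n = 3 each). Over the runs that left out 1 library it ranged from -3.08 to -2.05, and the adjusted p from 0.465, without SNHG10 replicate 2, to 0.925. Of its 2 listed transcripts, NUP88-207, which spans the gene, read 0.763, 1.91 and 2.04 FPKM against 16.9, 8.36 and 12.4 FPKM, without overlap (log2 difference -2.39 ± 0.42, adjusted p = 0.191 by limma among transcript rows). The shorter NUP88-205 (5312057 to 5321549) read 0.644, 7.14 and 0 FPKM against 0, 9.54 and 22.2 FPKM. The spans of NUP88 and of RPAIN, on the opposite strand, share 520 bases, and no source used here says whether counting used strand. RPAIN itself read 4.50, 0 and 4.97 FPKM against 0.0522, 6.49 and 13.2 FPKM and overlapped. Spans also overlap between RANBP1 and TRMT2A, between NUP62 and ATF5 and between NUP188 and SH3GLB2, each pair on opposite strands. On the same strand, spans overlap between IPO11 and LRRC70 (2714 bases) and between NUP188 and AL672142.1 (9323 bases).

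The promoter of NUP88 is shown because this gene differed most. The RefSeq window (GRCh38.p14, chr17:5419613-5419912, minus strand) held 3 matches to the CCAAT box CCAAT on either strand, 1 to the GC box GGGCGG and 1 to the ETS core CCGGAAG, in capitals.
NUP88: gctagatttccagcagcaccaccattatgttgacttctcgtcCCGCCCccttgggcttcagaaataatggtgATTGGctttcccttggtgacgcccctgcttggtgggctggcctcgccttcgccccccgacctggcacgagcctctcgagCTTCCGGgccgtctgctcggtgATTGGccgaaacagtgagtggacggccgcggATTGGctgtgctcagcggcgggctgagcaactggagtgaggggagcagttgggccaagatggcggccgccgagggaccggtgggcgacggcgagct

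NUP214, the partner of NUP88, also lay lower in all SNHG10 libraries as a sum of its transcripts. It read 9.80, 9.43 and 9.45 FPKM with SNHG10 probes, against 13.4, 14.2 and 10.4 FPKM with LacZ probes, where the lowest LacZ library came close to the SNHG10 libraries. The log2 difference was -0.36 ± 0.23 (adjusted p = 0.928 by limma). No single listed transcript of NUP214 separated the probe sets. NUP214-201 read 8.27, 9.43 and 0.487 FPKM against 11.9, 11.9 and 7.79 FPKM, and NUP214-202 held 8.96 FPKM in SNHG10 replicate 3. In LacZ replicate 3, the short NUP214-211 held 20.9% of the sum. RANBP2, the large protein of the cytoplasmic filaments, had nearly equal means of 7.81 ± 2.01 and 7.78 ± 1.93 FPKM (SD, n = 3 each), and near-identical RGPD copies could share its reads. NUP98, which also moves inside the nucleus, read 38.3, 21.8 and 42.7 FPKM against 31.6, 31.9 and 33.8 FPKM. Summed over these 4 genes, NUP98 included, the level was 58.7, 45.8 and 62.8 FPKM with SNHG10 probes, against 70.2, 73.4 and 84.5 FPKM with LacZ probes. These sums did not overlap, and NUP88 carried most of the gap. No p is given for this sum.

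In the scaffold rings, NUP85 and NUP205 separated the probe sets, in opposite directions, and neither passed. In the outer rings, NUP85 (chromosome 17, 73201754 to 73231853, plus strand) read 19.6, 22.5 and 20.7 FPKM with SNHG10 probes, against 17.6, 18.4 and 5.06 FPKM with LacZ probes. The gap rested largely on LacZ replicate 3: without it the log2 difference of 0.75 ± 0.44 became 0.20. NUP37 read 19.3, 13.6 and 8.16 FPKM against 11.7, 9.93 and 4.43 FPKM. NUP160, NUP133, NUP43 and NUP107 averaged 8.43 to 14.1 FPKM and 6.90 to 15.6 FPKM. In the inner ring, NUP205 (chromosome 7, 135242667 to 135333505, plus strand) read 18.0, 18.9 and 17.8 FPKM against 24.7, 21.2 and 20.9 FPKM, all below, with a log2 difference of -0.27 ± 0.18 (adjusted p = 0.928 by limma). Its near relative in structure, NUP188, averaged 11.4 ± 1.54 and 12.6 ± 1.80 FPKM, NUP155 11.2 ± 1.03 and 10.3 ± 0.821 FPKM, and NUP93, which links the inner ring to the central channel, 38.1 ± 5.37 and 34.4 ± 1.42 FPKM (SD, n = 3 each). NUP35 had 0, 10.4 and 3.59 FPKM against 4.50, 1.29 and 12.5 FPKM, with the first listed at 0.

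In the central channel, NUP62 read 23.2, 35.2 and 23.7 FPKM with SNHG10 probes, against 21.1, 24.2 and 14.3 FPKM with LacZ probes. Its channel partner NUP54 read 6.27, 2.99 and 4.52 FPKM against 7.47, 5.53 and 8.57 FPKM, and NUP58 averaged 6.13 ± 1.63 and 6.75 ± 2.45 FPKM (SD, n = 3 each). NUP62 and NUP54, which assemble together, thus had log2 differences of opposite sign, 0.44 ± 0.26 and -0.58 ± 0.33, and neither passed. With 1 library left out they ranged from 0.24 to 0.60 for NUP62 and from -0.79 to -0.35 for NUP54. At the nuclear basket, NUP153 read 16.8, 15.7 and 21.9 FPKM against 17.7, 17.9 and 17.04 FPKM. TPR, the coiled protein of the basket, read 26.6, 9.09 and 21.5 FPKM against 19.2, 8.88 and 13.2 FPKM. NUP50 read 4.90, 8.22 and 37.8 FPKM against 7.61, 17.2 and 13.4 FPKM, and its high library, SNHG10 replicate 3, held 26.4 FPKM in NUP50-208, which was listed at 0 in the other 5. NUP210, a glycoprotein of the pore membrane, averaged 8.21 ± 3.48 and 7.72 ± 1.37 FPKM.

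RANBP9 and RANBP10 matched by name and act as adaptors of a ubiquitin ligase rather than as transport receptors. RANBP9 averaged 9.10 ± 2.30 FPKM with SNHG10 probes and 11.7 ± 2.88 FPKM with LacZ probes, and RANBP10 4.94 ± 1.30 and 6.16 ± 1.94 FPKM (SD, n = 3 each). NUP62CL, named for its likeness to NUP62, was listed at 0 in 4 libraries.

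The leading transcript of a gene often changed from library to library. Of the 36 tested members with several listed transcripts, 12 had the same leading transcript in all 6 libraries (33.3%, against 29.1% of all such genes tested), among them RAN, KPNA2, RANGAP1, RCC1, XPO6, XPO7 and XPOT. XPO1 and NUP98 each had 4 different leading transcripts over the 6 libraries. The median SD within a probe set, on the log2 scale, was 0.861 for the 91 tested transcript rows of these 36 members and 0.276 for their sums. These are medians, and for single genes, such as XPOT and IPO7, the leading transcript had a smaller standard error of the log2 difference than the sum. In NUP153 a change of transcript left the sum in range: NUP153-202 was at 16.8, 15.7 and 1.30 FPKM with SNHG10 probes, against 17.7, 17.9 and 17.04 FPKM with LacZ probes, and NUP153-201 read 20.6 FPKM in SNHG10 replicate 3 and was listed at 0 elsewhere. TNPO3 did likewise on the LacZ side, where replicate 3 had 0 FPKM in TNPO3-205 and 17.3 FPKM in TNPO3-201. Of the 109 member rows tested, 13 did not overlap between the probe sets, 5 above and 8 below. KPNB1-202 and KPNB1-203, both below, passed the filter through the LacZ libraries alone, so this count is a description only. The 13 rows were 11.9% of those tested, against 10.5% of all rows tested (4.48% above, 6.06% below). These included NUP37-201, at 14.9, 5.53 and 3.82 FPKM against 3.06, 0 and 0 FPKM (log2 difference 2.31 ± 0.77, adjusted p = 0.732 by limma), and NUP160-203, at 0.957, 1.89 and 2.56 FPKM against 4.22, 7.28 and 6.15 FPKM (-1.31 ± 0.43, adjusted p = 0.721). The median SD of members with a mean of at least 20 FPKM was 0.220, against 0.241 for all genes at that level.

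**Figure D4:**
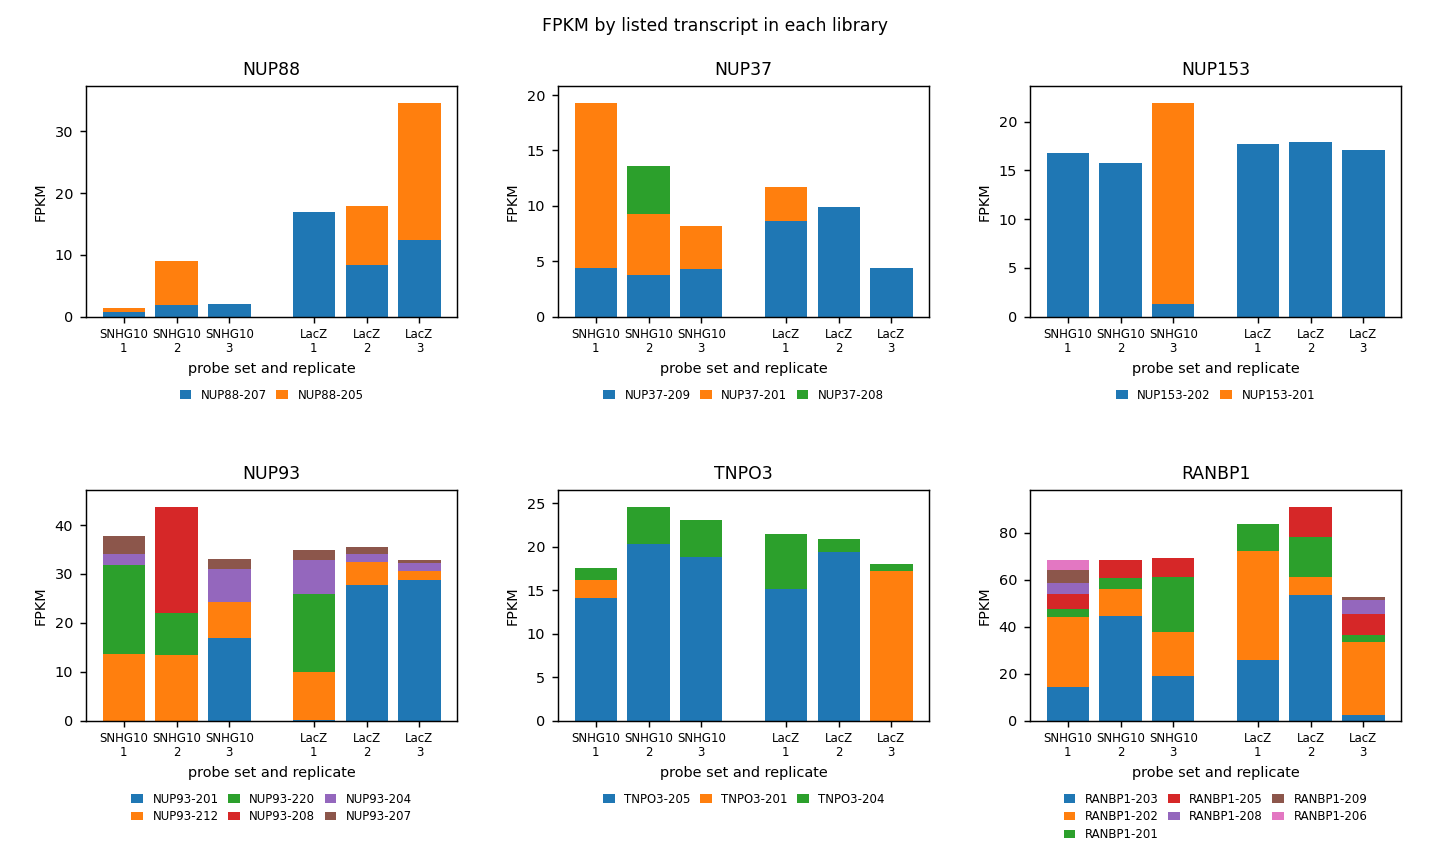
FPKM of 6 members in each library, SNHG10 probes on the left and LacZ probes on the right of each panel, as bars from 0 divided by listed transcript. In NUP153 and TNPO3 a single library draws its level from another transcript, in NUP93 and RANBP1 the leading transcript changes within each probe set, and NUP88-207 and NUP37-201 separate the probe sets.

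Genes of the same pathway outside the symbol rule gave no call either. Of 50 symbols looked for, 45 were listed. The symbols not listed were other names of genes that were listed, such as TMEM48 for NDC1, so no gene looked for was absent. Of the 45, 43 were tested, and 0 were higher and 0 lower by limma, with a smallest adjusted p of 0.864. At an unadjusted p under 0.05 there were 2, THOC7 and HIKESHI, where 5.42% of all genes tested were. The SNHG10 libraries lay all above for 2 of the 43 (THOC7 and ALYREF) and all below for 2 (NDC1 and ENY2), where 4.22% and 7.21% of all genes tested did. Their log2 differences were above 0 for 20 and below 0 for 23, with a median of -0.0524. THOC7, a subunit of the THO complex that couples transcription to export, read 19.2, 24.3 and 22.9 FPKM with SNHG10 probes, against 11.52, 14.3 and 9.61 FPKM with LacZ probes, without overlap (0.86 ± 0.22). ALYREF, an export adaptor that hands messenger RNA to NXF1, read 78.6, 79.5 and 80.5 FPKM against 50.04, 70.3 and 77.1 FPKM. NDC1, an anchor of the pore in the membrane, read 9.21, 8.74 and 8.03 FPKM against 9.67, 11.3 and 14.1 FPKM. ENY2, a subunit of the TREX-2 export complex, read 3.45, 4.11 and 2.25 FPKM against 5.49, 4.18 and 4.25 FPKM. HIKESHI, which imports HSP70 on heat stress, read 19.4, 9.22 and 11.6 FPKM against 4.07, 11.4 and 3.71 FPKM.

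Promoter windows were found in RefSeq for 51 of the 57 members, 63 windows in all, and KPNB1 was not among them. The ETS core CCGGAAG was in 23.8% of these windows, against 17.5% of the windows of all genes listed here and 10.3% of all RefSeq windows. The CCAAT box was in 41.3%, 34.7% and 34.6%, the GC box GGGCGG in 57.1%, 67.3% and 45.0%, and the E-box CACGTG in 14.3%, 9.64% and 7.26%, both strands counted. The palindromic NRF1 motif was in 6.35%, 1.94% and 1.24%, which is 4 windows of members, and the E2F motif TTTCCCGC in 1.59%, 2.40% and 1.63%. A match is a run of letters and shows neither binding nor a cause.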

How the data were processed

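Each library has its own table, in which the authors gave FPKM for every listed transcript (unit per the file headers). The submitters' processing notes name Bowtie2 2.1.0 and the build hg19. No source used here gives the FPKM estimator, the annotation release or the strand setting. The depth is unknown, so values carry no counting interval or floor.

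FPKM were summed per gene symbol. Genes, and separately transcript rows, that reached 1 FPKM in 3 or more libraries were fitted with limma 3.58.1 in R 4.3.3 (eBayes, trend over intensity) on log2(FPKM + 1), a scale that understates changes of low genes, with Benjamini-Hochberg adjustment over all features. For single genes, an exact permutation test (two-sided) ran over the 20 possible assignments. Tables were handled with pandas 2.3.3. On simulated data (libraries shuffled within each row, some rows raised by known folds), the gene fit recovered most large changes with false calls slightly above the nominal rate. The transcript fit missed most changes and its false calls were far above that rate, so a transcript call is a description only. Members, roles and lists were chosen with earlier results of these data known. Genes were named where libraries separated, a transcript row passed, a library was listed at 0, or level or p ranked among the top 2 of a role, and all 57 members are accounted for. Alternatives were other pseudocounts (0.1 and 5), filters, scalings and variance models, a replicate block and each library left out.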

Additional observations from a re-analysis of the deposited data

How the results depend on the processing

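No member passed at the gene level under any alternative run. The count of 1 transcript row lower, KPNB1-202, was 2 in limma without trend, which added KPNB1-203 (adjusted p = 0.0399). Both rows entered through the LacZ libraries alone, so these counts describe and support nothing. It was 0 with a pseudocount of 0.1 or 5, without a filter and with one of 5 FPKM (adjusted p of KPNB1-202 0.137, 0.0901, 0.0528 and 0.0769), and 0 to 0 over the runs that left out 1 library. With the replicate number as a block it was 0 (adjusted p = 0.598), and 0 members were called. The deviations of equal replicate numbers from their group means had correlations of 0.0151, 0.0121 and 0.0161, too low to treat the numbers as pairs, although all 6 libraries correlated best with their own number, a hint from the data only. The runs that left out a LacZ library with a filter of 2 libraries were chosen after seeing the data. In them the sign turned for 11 genes: IPO9, NUP43, NUP58, RANBP1, RANBP2, RANGAP1 and XPO6, within the ranges below, and NUP210 (-0.1104 without replicate 2), NUP35 (0.0772 without replicate 3), NUP50 (0.2022 without replicate 2 and 0.0359 without replicate 3) and XPO7 (-0.0048 without replicate 1). Signs near 0 turned: NUP50 to 0.0398 with a pseudocount of 5, 0.0217 after median-ratio scaling and 0.0174 after quantile normalization, and RANGAP1 to 0.0459 and 0.0287 after these scalings. Leaving out 1 library moved the log2 difference between -0.8319 and 0.5276 for NUP50, -0.1285 and 0.1698 for RANGAP1, -0.2884 and 0.0612 for IPO5, -0.0128 and 0.3286 for IPO7, -0.2831 and 0.0439 for IPO9, -0.0873 and 0.4417 for NUP107, -0.1058 and 0.1217 for NUP153, -0.2631 and 0.2224 for NUP210, -1.37 and 0.387 for NUP35, and -0.3136 and 0.2972 for NUP43. It moved it between -0.3082 and 0.1376 for NUP58, -0.1578 and 0.3095 for NUP98, -0.2744 and 0.0923 for NXF1, -0.3404 and 0.0472 for RANBP1, -0.1878 and 0.206 for RANBP2, -0.5257 and 0.0012 for XPO1, -0.0538 and 0.1281 for XPO6, -0.0081 and 0.2663 for XPO7, and -0.2079 and 0.0137 for XPOT. The cause was not tested. With the depth unknown, how precise the low values are could not be judged.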
